A study of Mus musculus with 12 samples.

Results

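The genes described here encode the nuclear subunits of oxidative phosphorylation complexes I, III, IV and V. They were taken by name from the table of all genes: names starting with Nduf followed by a, b, c, s or v and a digit, with Uqcr, with Cox4 to Cox8, or with Atp5. Of 100 matching names, 14 pseudogene names, Ndufa4l2 and Atp5g3 were left out, which gave 84 of 56495 genes. Complex I had 41 of them, complex III 8, complex IV 19 and complex V 16. RNA was sequenced from the urogenital sinus of E18.5 mouse embryos, the tissue that gives rise to much of the urethra and, in males, to the prostate. The dissection left the bladder out and, in females, took the vagina along. Females and males of wild type and of a mutant genotype gave 4 groups of 3 libraries. The mutant embryos were Inv(Itga6-nsi)d11lac; the name gives an inversion that ends at Itga6 and an allele d11lac, which the labels do not describe further. No agent was given to any group, as far as the labels say.

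Oxidative phosphorylation takes place in the inner mitochondrial membrane. Complex I passes electrons from NADH to ubiquinone, complex III passes them from ubiquinol to cytochrome c, and complex IV passes them from cytochrome c to oxygen. These 3 complexes pump protons, and complex V, the ATP synthase, uses the returning protons to make ATP. Most subunits are made in the cytosol from nuclear genes and imported, while a small core of complexes I, III, IV and V is encoded by mitochondrial DNA. Some complex IV subunits have alternative isoforms with a tissue preference, such as the heart and skeletal muscle forms Cox6a2, Cox7a1 and Cox8b. All values below are FPKM, that is fragments for each gene divided by its length and by the library total, rescaled between libraries by their median ratio. They are called scaled FPKM.

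The libraries differed in several ways that run alongside the groups. Relative sequencing depth lay between 0.81 and 1 for wild type and between 0.582 and 0.717 for mutant, with no overlap. In 3 male libraries, 1 of wild type (male 1) and 2 of mutants (males 1 and 3), the small RNA Rn7sk made up 12.2% to 14.9% of all FPKM, and elsewhere it was listed at 0. All 36 mitochondrially encoded genes were listed at 0 in all 12 libraries, so the mitochondrial subunits of the same complexes could not be set beside the nuclear ones. Markers of the labelled tissue were present: 11 of 11 epithelial, 7 of 7 mesenchymal and 6 of 6 smooth muscle markers passed the filter on low values. Some moved with genotype over both sexes, by the limma call defined below: 3 epithelial markers were higher (Krt5, Foxa1 and Trp63, at log2 changes of 1.54, 0.43 and 0.38), 1 smooth muscle marker higher (Smtn, 0.41) and 2 mesenchymal markers lower (Hoxd13 and Tbx18, at -1.83 and -0.64). Of 6 proliferation markers 3 were lower and 1 higher over both sexes, and in females 3 were lower, among them Top2a at -0.63. Of 7 red blood cell markers 1 was called higher over both sexes and within males, Hba-a2, at 4.44 in males. The median log2 change of the 7 was 1.99 in males and -0.49 in females, where 0 were called. Their summed level was 5519 to 12619 scaled FPKM in wild type females and 700 to 7213 in wild type males. In mutants it was 2746 to 12064 in females and 4203 to 11767 in males. Summed neural markers ran from 109.9 to 247.1 scaled FPKM in 11 libraries and were 19.4 in mutant female 3. The part of these in the subunit values was not tested. Without mutant female 3, 33 members were called over both sexes and 22 in females, beside 32 and 25 with it. Whether each library stands for a separate embryo is not given in the labels. The p-values thus reflect only the spread from library to library, which may be technical.

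The subunit genes took 1.67% to 1.92% of all deposited FPKM in wild type libraries and 1.39% to 1.71% in mutant libraries. These ranges overlapped through wild type male 1, at 1.67%. Rn7sk adds to the total there and in mutant males 1 and 3. Within females the shares did not overlap, at 1.734% to 1.831% in wild type against 1.452% to 1.655% in mutants. The deposited FPKM summed to 336016 to 353535 in wild type females and to 374508 to 388262 in mutant females. The shares depend on these totals, so they do not by themselves show a fall of subunit RNA in mutant females. Summed scaled levels are given below. Of the 84 genes, 76 reached at least 1 FPKM in at least 3 libraries and were tested: 37 in complex I, 8 in complex III, 16 in complex IV and 15 in complex V. Over the 12 libraries their mean levels ran from 1.28 for Cox7a1, just inside the filter at 0.932 to 2.26 by library, to 378 scaled FPKM for Atp5b, the catalytic beta subunit of the ATP synthase. The median level was 45 scaled FPKM in complex I, 75.2 in complex III, 66.9 in complex IV and 105 in complex V. The most abundant members of each complex were Ndufa4 (127) and Ndufb8 (101), Uqcrh (199) and Uqcr11 (103), Cox4i1 (296) and Cox6b1 (187), and Atp5b (378) and Atp5a1 (328), all as mean scaled FPKM. Ndufa4 is grouped with complex I by its name, although its protein is now assigned to complex IV. The 8 genes that did not pass the filter were Ndufa11b, Ndufb11b, Ndufb4c, Ndufs6b, Cox6c2, Cox7b2, Cox8c and Atp5l. Ndufb11b, Ndufb4c and Cox8c were listed at 0 in every library, and Atp5l was the highest of the 8, at 0.0904 to 0.872 scaled FPKM. Atp5l encodes subunit g of the ATP synthase. Many subunit genes have processed pseudogenes, and how reads that match several copies were shared was not stated.

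**Figure D1:**
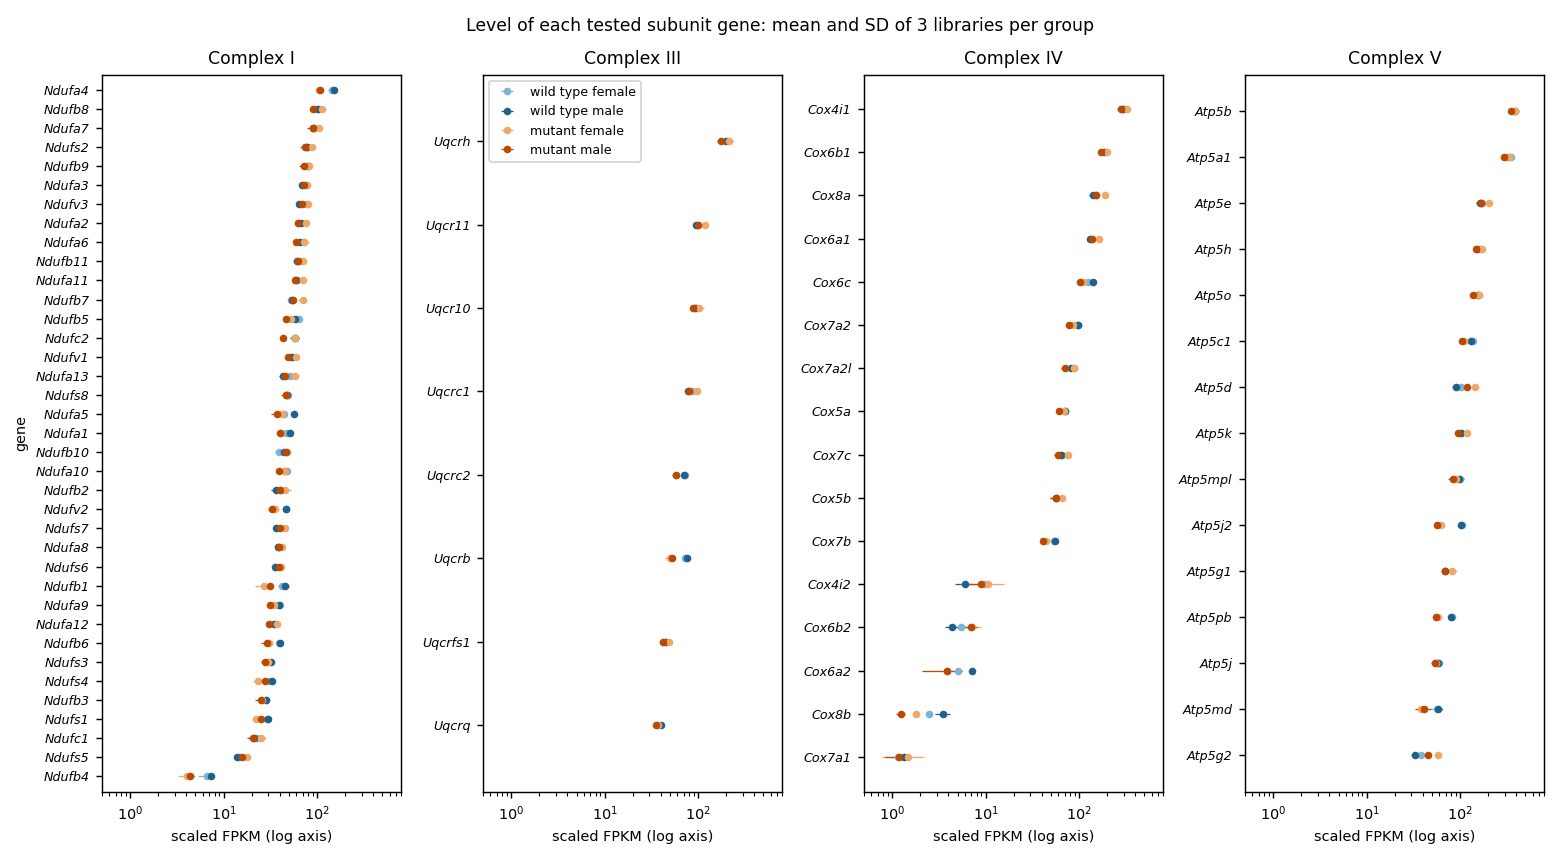
Level of each of the 76 tested subunit genes (x axis, scaled FPKM on a log axis) by complex, as the mean and SD of 3 libraries in each of the 4 groups. Most genes lie within a narrow band between groups, while Cox8b, Cox7a1, Cox6a2, Cox6b2, Cox4i2 and Ndufb4 lie well below the other subunits of their complexes.

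The start regions of 4 genes are shown, 3 of complex V whose change over both sexes stayed called under all 24 processing alternatives, and the muscle isoform Cox8b, called under the 23 that could test it (it is below the filter of 5 FPKM). They were chosen after the values were seen, and Atp5c1 and Ndufb4, which also stayed called under all 24, are not shown. Each runs from 120 bases before to 30 bases after the annotated start, 5′ to 3′ on the minus strand, from RefSeq on GRCm38.p6: chr5:145191512-145191661 for Atp5j2, chr3:105959234-105959383 for Atp5pb, chr15:102671018-102671167 for Atp5g2 and chr7:140900417-140900566 for Cox8b. Capitals mark whole matches, on either strand, to GCATGCGC (NRF1), CCGGAAG (ETS factors, which include GABP), AAGATGGC (YY1), GGGCGG (the GC box) and CCAAT, motifs known from promoters of mitochondrial genes.
Atp5j2: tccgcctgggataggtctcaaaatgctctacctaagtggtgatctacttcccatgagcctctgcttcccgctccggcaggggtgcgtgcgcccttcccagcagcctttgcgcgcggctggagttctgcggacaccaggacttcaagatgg
Atp5pb: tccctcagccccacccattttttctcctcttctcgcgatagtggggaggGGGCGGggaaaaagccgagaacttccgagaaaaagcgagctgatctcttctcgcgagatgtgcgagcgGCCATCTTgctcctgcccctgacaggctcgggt
Atp5g2: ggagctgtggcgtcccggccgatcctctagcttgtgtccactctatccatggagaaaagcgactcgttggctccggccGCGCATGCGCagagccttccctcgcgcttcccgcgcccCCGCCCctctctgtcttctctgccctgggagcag
Cox8b: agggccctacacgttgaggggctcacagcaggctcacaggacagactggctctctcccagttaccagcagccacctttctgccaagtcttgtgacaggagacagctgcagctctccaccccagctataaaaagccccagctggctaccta
The palindromic NRF1 match of Atp5g2 was found on both strands and overlaps itself. In Atp5j2 a YY1 match begins inside the stretch and runs past its end, so it is not in capitals. No motif was found in the Cox8b stretch. Over the whole window of 250 bases before to 50 after the start, 65 of the 84 genes had an entry. The NRF1 letters stood in 9 of them (13.8%, against 5.71% of 10571 tested genes with an entry and 3.05% of 27025 promoters in the table). The YY1 letters stood in 10 (15.4%, against 5.07% and 3.19%), the ETS letters in 15 (23.1%, against 19.1% and 9.93%), the GC box in 26 (40%, against 69.7% and 38.2%) and CCAAT in 27 (41.5%, against 42.9% and 41.1%). Of 8 letter strings tried on these genes, these 5 were kept, so the shares are descriptions, and a match is not a shown binding site.

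Over both sexes the subunit genes did not move as a block. Of the 76 tested, 24 fell and 8 rose in mutants against wild type, and 44 were not called. A gene is called when its limma p, adjusted by Benjamini-Hochberg over all 13904 tested genes, is under 0.05. The 32 called genes are 42.1% of the members, beside 40.6% of all tested genes, so the share is near the background. By direction, 18.9% of all tested genes were called higher and 21.6% lower. The median log2 change of the members was -0.05, beside 0.00 for all tested genes. The changes ran from -0.79 to 0.53 and 40 of 76 lay below 0. Libraries of the 2 genotypes did not overlap at all for 20 members, 18 lower and 2 higher in mutants, beside 17.1% of all tested genes. Scaling mattered for the direction: with FPKM as deposited, where the median of all genes moved by -0.11, 2 members were called higher and 21 lower, and with scaling to the sum without Rn7sk, which moved it by -0.11 too, 3 higher and 37 lower. Without the 3 libraries that hold Rn7sk, 3 were higher and 14 lower. In bulk tissue, fewer cells of a type and less RNA per cell cannot be told apart.

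**Figure D2:**
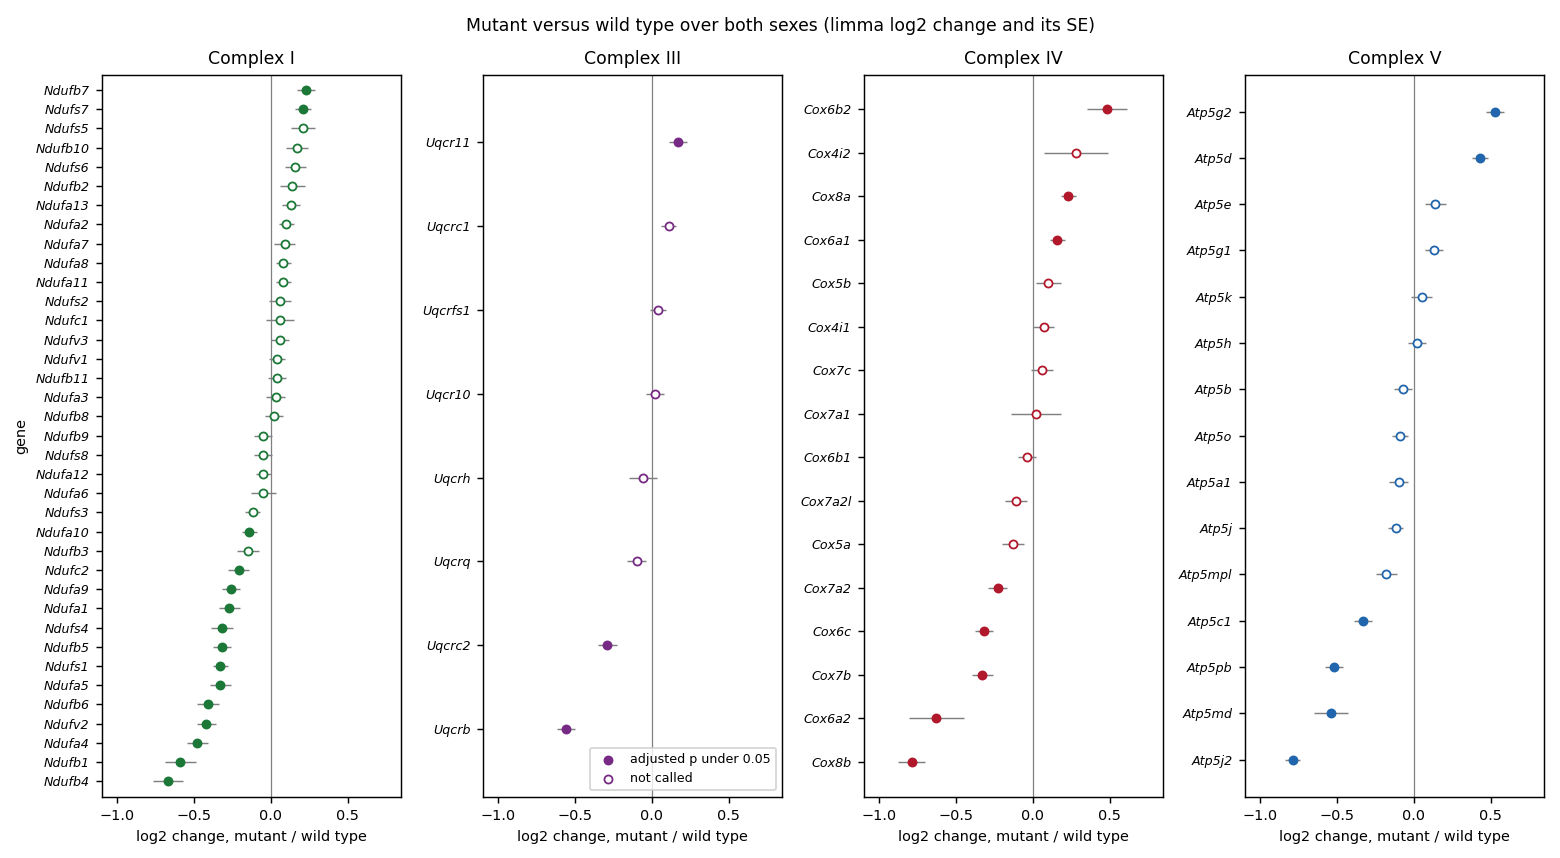
Log2 change of mutant against wild type over both sexes (x axis) with its standard error for each tested subunit gene by complex, with filled points for genes at a limma adjusted p under 0.05. Called genes stand on both sides of 0 in each complex, from -0.79 for Atp5j2 and Cox8b to 0.53 for Atp5g2.

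In complex V 4 genes fell and 2 rose of 15. Atp5j2, which encodes subunit f of the membrane part (chr5:145120508-145128872 on mm39), fell. Its level was 103, 103 and 109 scaled FPKM in wild type females and 97.4, 98.6 and 112 in wild type males. In mutants it was 62, 66.6 and 61.2 in females and 57.7, 58.1 and 54.4 in males. All 6 mutant libraries lay below all 6 wild type libraries. The log2 change over both sexes was -0.79 (SE 0.05, limma adjusted p = 2.16e-05), with -0.85 for males and -0.73 for females.

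Atp5pb, the b subunit of the peripheral stalk that holds the catalytic head still (chr3:105850014-105867415), fell too. Wild type levels were 80.9, 73.7 and 89.2 scaled FPKM in females and 82.1, 73 and 86.2 in males, against 55.9, 56.7 and 59.6 and 52, 53.3 and 59.4 in mutants, with no overlap. The log2 change was -0.52 (SE 0.06, limma adjusted p = 0.000168). Atp5c1, the gamma subunit that forms the central rotor shaft, changed by -0.33 (SE 0.06, limma adjusted p = 0.0014), and the small membrane subunit gene Atp5md by -0.54 (SE 0.11, limma adjusted p = 0.00309). Both had all mutant libraries below all wild type libraries.

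The other direction was taken by Atp5g2, 1 of 3 genes for the c subunit of the rotor ring (chr15:102571299-102580787), and by Atp5d, the delta subunit of the central stalk (chr10:79977291-79981652). Atp5g2 stood at 37.9, 37.1 and 39.7 scaled FPKM in wild type females and 29.3, 36.1 and 33.8 in wild type males. In mutant females it was 55.2, 57.1 and 63.8 and in mutant males 47.7, 42.7 and 45.3, all above the wild type libraries. Its log2 change was 0.53 (SE 0.06, limma adjusted p = 0.000133). Atp5d had group means of 103 ± 1.57 (SD, n = 3) and 91.6 ± 9.23 scaled FPKM in wild type females and males, against 145 ± 7.3 and 118 ± 2.05 in mutants. It rose by 0.43 on the log2 scale (SE 0.05, limma adjusted p = 0.0002), with no overlap. The most abundant members, Atp5b and Atp5a1, were at -0.07 and -0.10 and were not called (limma adjusted p = 0.355 and 0.191). Grouped by position in the enzyme, 1 of 5 subunits of the catalytic head and central stalk was called lower and 1 higher. In the peripheral stalk 1 of 4 was lower, in the membrane accessory subunits 2 of 4 were lower, and in the c ring 1 of 2 was higher.

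**Figure D3:**
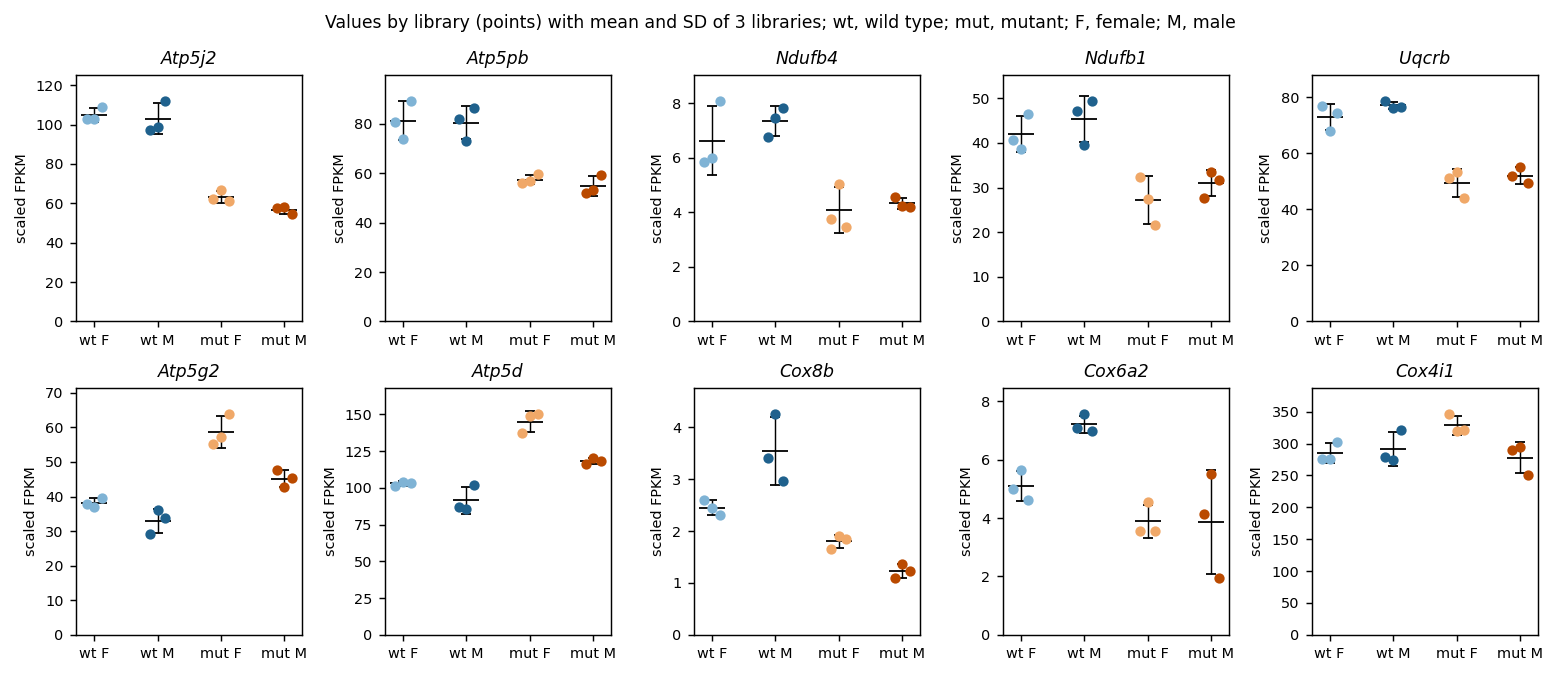
Scaled FPKM (y axis, from 0) in each of the 3 libraries (points) of the 4 groups for 10 genes chosen after their values were seen, with the mean and SD. In Atp5j2, Atp5pb, Ndufb4, Ndufb1 and Uqcrb all mutant libraries lie below all wild type libraries, in Atp5g2 and Atp5d they lie above, and in Cox4i1 the groups overlap.

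In complex I 13 genes fell and 2 rose of 37. Falls were found among both kinds of subunit: 2 of 7 core subunits, those shared with the bacterial enzyme, and 11 of 30 accessory subunits. The core genes that fell were Ndufv2 and Ndufs1, both of the arm that takes electrons from NADH. Ndufv2 was 45.1, 45.6 and 47.6 scaled FPKM in wild type females and 47.5, 45.9 and 45.2 in wild type males. Mutant levels were 38.1, 36.8 and 32.4 in females and 31.8, 36.6 and 30.6 in males, all lower, and the log2 change was -0.42 (SE 0.06, limma adjusted p = 0.000292). Ndufs1 changed by -0.33 (SE 0.05, limma adjusted p = 0.000604).

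Among the accessory subunits the largest falls were in genes for subunits of the membrane arm. Ndufb4 (chr16:37467532-37474815), low for this complex, was 5.85, 5.99 and 8.09 scaled FPKM in wild type females and 6.76, 7.46 and 7.83 in wild type males. In mutants it was 3.77, 5.06 and 3.47 in females and 4.56, 4.24 and 4.19 in males. Every mutant library lay below every wild type library, and the log2 change was -0.67 (SE 0.10, limma adjusted p = 0.000508). Ndufb1 (chr12:101934349-101943323) had group means of 41.9 ± 4.04 and 45.4 ± 5.16 (SD, n = 3) in wild type females and males and 27.2 ± 5.38 and 31 ± 2.96 in mutants, again without overlap, a log2 change of -0.59 (SE 0.10, limma adjusted p = 0.000973). Ndufa4 fell by 0.48 on the log2 scale (SE 0.07, limma adjusted p = 0.000388) and Ndufb6 by 0.41 (SE 0.07, limma adjusted p = 0.00093). The 2 rises were smaller: 0.23 for Ndufb7 (SE 0.06, limma adjusted p = 0.0137) and 0.21 for the core gene Ndufs7 (SE 0.05, limma adjusted p = 0.00449), and their libraries overlapped between genotypes. The abundant Ndufb8 stood at 0.02 (limma adjusted p = 0.778).

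In complex III, Uqcrb and Uqcrc2 fell, Uqcr11 rose and 5 genes were not called. Uqcrb, a small accessory subunit beside the ubiquinone site, was 76.7, 67.8 and 74.4 scaled FPKM in wild type females and 78.6, 76.1 and 76.3 in wild type males. Mutant levels were 51.3, 53.4 and 43.9 in females and 51.7, 55.2 and 49.2 in males, all below wild type. Its log2 change was -0.56 (SE 0.06, limma adjusted p = 9.16e-05), and the same value was found in each sex. Uqcrc2, a core protein on the matrix side, changed by -0.29 (SE 0.06, limma adjusted p = 0.00235) without overlap. The rise of Uqcr11 was 0.17 (SE 0.06, limma adjusted p = 0.0333) and was lost without any 1 of 8 libraries (all wild type females, wild type males 1 and 2, mutant female 2 and mutant males 1 and 2), at limma adjusted p of up to 0.0913. The iron-sulfur subunit Uqcrfs1, which passes on the electrons, stood at 0.04 (limma adjusted p = 0.616), and the abundant Uqcrh at -0.06 (limma adjusted p = 0.626).

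Complex IV had 5 falls and 3 rises of 16, and the muscle isoforms Cox8b and Cox6a2 were among the falls. Cox8b (chr7:140478858-140480359) was low, at 2.6, 2.44 and 2.3 scaled FPKM in wild type females and 3.41, 4.25 and 2.96 in wild type males. It was 1.65, 1.9 and 1.85 in mutant females and 1.1, 1.36 and 1.23 in mutant males. All mutant libraries lay below all wild type libraries, with the widest gap in males. The log2 change was -0.79 over both sexes (SE 0.09, limma adjusted p = 0.000129), -1.21 in males (SE 0.13, limma adjusted p = 0.00128) and -0.36 in females (SE 0.13, limma adjusted p = 0.0569). Cox6a2 (chr7:127804607-127805559) was 4.99, 5.64 and 4.63 in wild type females, 7.09, 7.56 and 6.99 in wild type males, 3.57, 4.55 and 3.56 in mutant females and 4.13, 5.5 and 1.95 in mutant males. It fell by 0.63 on the log2 scale (SE 0.18, limma adjusted p = 0.0152) over both sexes and by 0.92 in males, and mutant and wild type libraries overlapped over both sexes but not within a sex. Its call in males was lost without any 1 of the wild type males or without mutant male 1, at limma adjusted p of up to 0.0768. The third muscle isoform, Cox7a1, was at 0.02 (limma adjusted p = 0.915) at a level near the filter.

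Skeletal muscle markers are set beside these values. Of 12 such markers, 10 fell in mutant males, 0 in mutant females, and 5 were higher in wild type males than in wild type females. Within mutants 2 were lower in males and 0 higher, at a median log2 change of 0.15 over the 12. In that comparison Cox8b was at -0.41 (SE 0.13, limma adjusted p = 0.0761) and Cox6a2 at -0.10 (limma adjusted p = 0.844). Their summed level was 1034 to 1430 scaled FPKM in wild type males, against 631 to 853 in wild type females, 594 to 721 in mutant females and 598 to 963 in mutant males. Of 5 heart muscle markers 3 were tested and of 6 brown fat markers 2, with 0 called in any mutant comparison. Ucp1, which defines brown fat, was listed at group means of 0 to 0.0267 scaled FPKM. The part of muscle tissue in the Cox8b and Cox6a2 values was not tested.

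The common partners of these isoforms were called in both directions or not at all. Cox8a, the form found in most tissues, rose by 0.23 on the log2 scale (SE 0.05, limma adjusted p = 0.00655) and Cox6a1 by 0.16 (SE 0.05, limma adjusted p = 0.0281). The call of Cox6a1 was lost without any 1 of 8 libraries (all wild type females, wild type males 1 and 3, mutant female 2 and mutant males 2 and 3), at limma adjusted p of up to 0.0663. Cox7a2 changed by -0.23 (SE 0.06, limma adjusted p = 0.0112) and Cox7b by -0.33 (SE 0.07, limma adjusted p = 0.00242). Cox6c, named for its call and not as a partner, changed by -0.32 (SE 0.06, limma adjusted p = 0.00264). Cox4i1, the main form of subunit 4, was 276 to 303 scaled FPKM in wild type females, 274 to 322 in wild type males, 320 to 346 in mutant females and 250 to 295 in mutant males, a change of 0.07 (limma adjusted p = 0.442). Its alternative form Cox4i2, best known from lung, varied from 4.91 to 15.9 between libraries and was at 0.28 (SE 0.21, limma adjusted p = 0.318). Cox6b2, the form known from testis, rose by 0.48 (SE 0.13, limma adjusted p = 0.0118) from 3.88 to 6.5 in wild type libraries to 5.49 to 8.97 in mutants, while its common partner Cox6b1 was at -0.04. Without the 3 libraries that hold Rn7sk, the calls over both sexes of Cox6b2, Cox6a2, Cox6a1, Cox8a, Cox7a2, Cox7b and Cox6c were lost. That of Cox8b was kept. Outside complex IV, among the members chosen by the naming rule given below, those of Ndufa5, Ndufb7, Ndufc2 and Uqcr11 were lost too. Called members outside that rule, such as Ndufb1, Ndufb6 and Atp5md, were not followed gene by gene. Cox7a2l, which takes part in joining complexes III and IV, was at -0.11 (limma adjusted p = 0.251).

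Within males, 22 of the 76 genes fell and 3 rose, 32.9% of the members beside 20.3% of all tested genes (8.64% higher and 11.6% lower). Within females 14 fell and 11 rose, also 32.9%, beside 28% of all tested genes (12.1% higher and 15.9% lower). Groups did not overlap for 38 members in males, 34 lower and 4 higher, beside 43.5% of all tested genes, and for 41 in females, 21 lower and 20 higher, beside 42.6%. Of the called genes 13 fell in both sexes and 2 rose in both, 10 were called in males and not in females, 10 in females and not in males, and 0 in opposite directions. As shares of the members these are 17.1%, 2.63%, 13.2% and 13.2%, beside 8.7%, 5.08%, 6.47% and 14.2% of all tested genes. Called higher in females and not called in males were Ndufa2, Ndufa11, Ndufb7, Ndufv1, Ndufs7, Uqcr11, Cox8a, Cox6a1 and Atp5g1, at 0.21 to 0.42 in females and -0.13 to 0.14 in males. These 9 genes are 11.8% of the members, beside 7.04% of all tested genes, and the difference between the sexes was called for none of them (limma). Ndufs7 was also higher in all mutant males than in all wild type males, at 41.5, 41.5 and 37 against 36.9, 36.8 and 35.6 scaled FPKM, without being called. The female call of Ndufa2 was lost without wild type female 1 (limma adjusted p = 0.0547), and that of Ndufv1 without any 1 of wild type females 1 and 2, wild type male 1 and mutant female 1 (limma adjusted p of up to 0.122). Those of Cox6a1 and Uqcr11 were lost without any 1 wild type female or mutant female 2, and for Cox6a1 also without wild type male 1 and for Uqcr11 without mutant female 1 (limma adjusted p of up to 0.105 and 0.0934). After correction for GC content and transcript length, described below, Atp5g1 was the 1 of the 9 still called in females (limma adjusted p = 0.0297). The transcript used for it is 4715 bases long at 46.8% GC, against 445 to 1661 bases at 51.7% to 59.7% for the others. Which transcript its reads came from was not tested. Without the 3 libraries with Rn7sk, which leaves 2 wild type males and 1 mutant male whose spread is assumed to be like the others', 1 member was called in males, and without mutant male 1 alone 16 were. All 25 male calls kept their sign without those 3 libraries, at a median size of 0.37 against 0.46 on the log2 scale, while the median standard error was 0.15 against 0.09. In females, 14 were called without wild type female 1. With FPKM as deposited, which moved the median of all genes by -0.14 in males and -0.08 in females, 0 were higher and 14 lower in males and 0 higher and 7 lower in females. Scaled to the sum without Rn7sk, which moved it by -0.01 and -0.21, 3 were higher and 21 lower in males and 2 higher and 30 lower in females.

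The median log2 change of the members was -0.14 in males and 0.03 in females. The mutant effect was lower in males than in females for 67 of 76 members (88.2%, beside 49.2% of all tested genes), with a median difference of -0.15 on the log2 scale. After the correction for GC content and length described below, 53 of 76 members lay below 0. The median difference was then -0.05, beside -0.01 for all genes tested so. Against the median of all tested genes it was -0.15 as scaled here, -0.16 with FPKM as deposited and -0.13 with the sum without Rn7sk, although with that sum the members' own median was 0.08, beside 0.21 for all tested genes. No member's difference of effect between the sexes was called by limma, and 0% of all tested genes were. At an unadjusted p under 0.05 there were 12 members (and 1225 of all genes), and the lowest adjusted p of a member was 0.533, for Cox8b, whose effect differed by -0.85 (SE 0.18). The next by p were Ndufa2, at a difference of -0.36, and Ndufv1, at -0.34. The sex difference of the mutant effect is therefore not shown for any single subunit gene.

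Between the sexes within wild type, 0 members were called by limma, beside 3.18% of all tested genes. At an unadjusted p under 0.05 there were 6 of the 76, fewer by share than the 2541 (18.3%) of all 13904 tested genes. Without wild type male 3, 1 member was called. The lowest p belonged to Cox8b, at 0.44 in males against females (SE 0.13, limma adjusted p = 0.0964), to Ndufa5 at 0.34 and to Ndufa13 at -0.25. Within mutants 9 members were lower in males and 0 higher, 11.8% of the members beside 7.49% of all tested genes. These were Ndufa2, Ndufa11, Ndufa12, Ndufa13, Ndufc2, Ndufv1, Cox8a, Atp5d and Atp5g2, at -0.27 to -0.45. Ndufc2, an accessory subunit, had levels of 62.7, 56.5 and 56.7 scaled FPKM in females of the mutant and of 44.7, 43.2 and 40.7 in its males, a change of -0.45 (SE 0.10, limma adjusted p = 0.0232). Without any 1 mutant male library 0 of these 9 calls were made. With scaling to the sum without Rn7sk, at which the median of all genes stood at 0.31, 15 members were called higher in males and 0 lower, and with FPKM as deposited 0 were called. Against the median of all genes, the members' median was -0.19 as scaled here, -0.19 with FPKM as deposited and -0.16 with that sum.

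Levels were also summed over the tested and untested members of each complex in the 4 groups. Complex I summed to 1929 ± 47 scaled FPKM (SD, n = 3) in wild type females, 1919 ± 71.5 in wild type males, 1947 ± 83.5 in mutant females and 1730 ± 86.7 in mutant males. Complex III summed to 712 ± 28.3, 698 ± 52.6, 727 ± 22.6 and 631 ± 43.5 in the same order. Complex IV gave 1349 ± 44.6, 1336 ± 79.3, 1445 ± 48.2 and 1232 ± 53.9, and complex V 2086 ± 56.9, 2010 ± 141, 2081 ± 62.1 and 1821 ± 94.2. Mutant males had the lowest mean in each complex. On this scaling all their libraries lay below all those of mutant females and of wild type females in each of the 4. Mutant male libraries overlapped with wild type males in complexes III and IV and lay below them in complexes I and V. In complex V the gap was narrow, with a highest mutant male sum of 1915 against a lowest wild type male sum of 1919. No test was made of these sums, which are carried by the most abundant genes.

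Changes across the whole table went with the base composition of the transcripts, and the subunit genes were no exception. Over 13735 tested genes with a transcript in the annotation, the log2 change over both sexes had a Pearson correlation of 0.63 with GC content, and over the 76 members of 0.45. The points share the same 12 libraries. In males these were 0.53 and 0.38, in females 0.60 and 0.48. The 24 members that fell had a median GC content of 48.2%, the 8 that rose 58.9% and the 44 not called 53.6%, beside 50.3% for all tested genes.

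**Figure D4:**
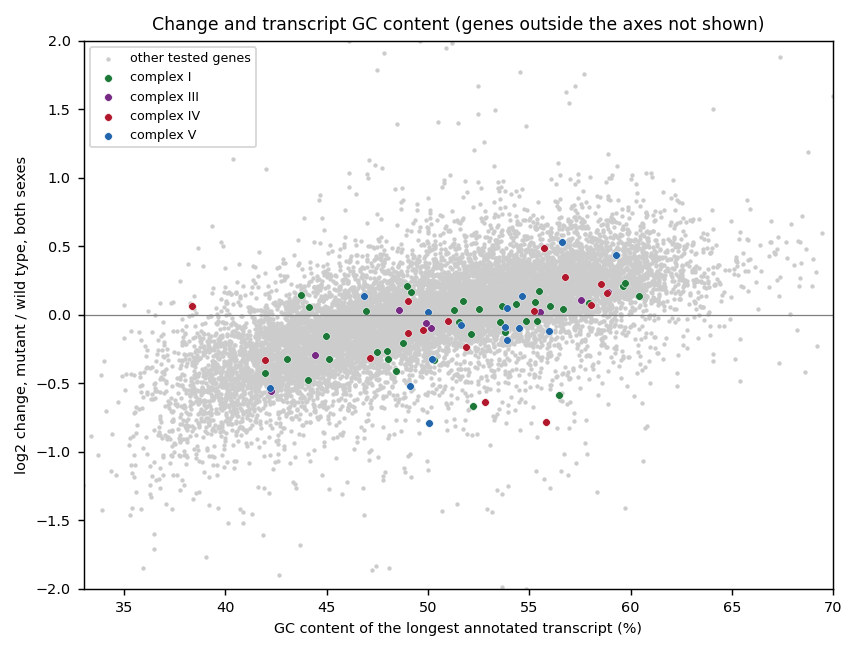
Log2 change over both sexes (y axis) against the GC content of the longest annotated transcript in percent (x axis) for all tested genes in grey and the subunit genes coloured by complex. Both clouds rise from left to right, with Pearson correlations of 0.63 and 0.45, and Cox8b, Ndufb1, Atp5j2 and Ndufb4 lie below the bulk of genes at their GC content.

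With GC content and transcript length fitted and removed in each library, 17 members were lower and 9 higher over both sexes, 34.2% beside 15.5% of all genes tested so. Of the 24 genes that fell 12 stayed lower, and of the 8 that rose 2 stayed higher. A further 5 became called lower and 7 higher. Complex V had 7 lower and 3 higher of 15, complex I 7 lower and 5 higher of 37, complex IV 3 lower and 1 higher of 16, and complex III 0 of 8. In males 8 members were called, all lower, 10.5% of the members beside 3.02% of all genes tested so. In females 7 were lower and 6 higher, 17.1% beside 6.52%. Between the sexes in mutants 5 were lower in males, 6.58% beside 5.95%.

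The correction separated genes with similar first values. Atp5j2 kept -0.73 (SE 0.05, limma adjusted p = 1.83e-05), Atp5pb -0.43 (limma adjusted p = 0.00316), Ndufb4 -0.69 (limma adjusted p = 0.00181), Ndufb1 -0.73 (limma adjusted p = 0.000752), Cox8b -0.98 (limma adjusted p = 0.000992) and Cox6a2 -0.69 (limma adjusted p = 0.0236). Atp5g2 kept 0.37 (limma adjusted p = 0.00604) and Atp5d 0.22 (limma adjusted p = 0.0421). In contrast, Uqcrb went to -0.17, Atp5md to -0.16, Ndufa4 to -0.18, Uqcrc2 to -0.01, Ndufv2 to 0.00, Cox7b to 0.10, Cox6c to -0.15 and Ndufs1 to -0.10, none of them called (limma adjusted p = 0.0558 to 0.985). Cox6b2 went from 0.48 to 0.34 (limma adjusted p = 0.0932). The rises of Cox8a, Cox6a1, Ndufb7, Ndufs7 and Uqcr11 went to 0.01, -0.06, -0.01, -0.01 and -0.08. Cox7c, a small complex IV subunit gene whose transcript has the lowest GC content of the tested members at 38.4%, moved from 0.06 to 0.69 (limma adjusted p = 0.000981). Its levels before correction, 57.4 to 73.6 scaled FPKM in wild type libraries and 53.1 to 82 in mutants, overlapped.

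**Figure D5:**
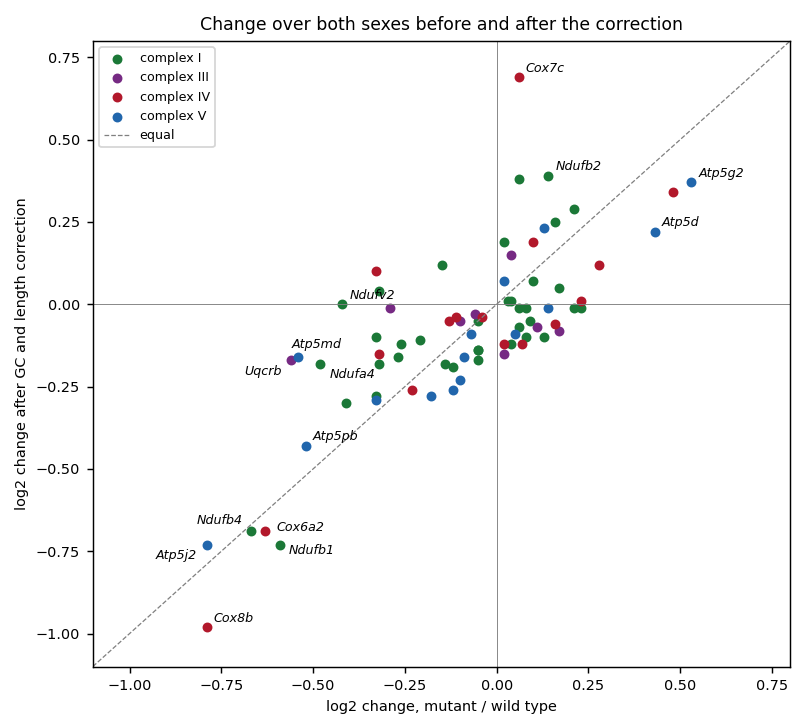
Log2 change over both sexes before (x axis) and after (y axis) correction for GC content and transcript length for the 76 tested members, coloured by complex, with a dashed line of equal values. Atp5j2, Atp5pb, Ndufb4, Cox6a2 and Atp5g2 lie near the line, Uqcrb, Atp5md, Ndufa4 and Ndufv2 lie nearer to 0 after correction, and Cox7c stands apart at 0.69.

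Other genes of energy metabolism, grouped in lists by function, were also called in both directions over both sexes. Of all tested genes 40.6% were called, 18.9% higher and 21.6% lower. The share called was below this for complex II, electron carriers, mitochondrial ribosomal proteins, the citrate cycle, import and glycolysis. It was above this for the assembly factors and the transcriptional regulators. Of 4 complex II genes 1 fell, Sdhd, a membrane anchor of succinate dehydrogenase, at -0.19. Of 4 tested electron carrier genes 1 fell, Cycs (cytochrome c), at -0.33. Of 14 assembly factors of complex I, 6 fell and 1 rose, among them Tmem126b at -0.36 and Ndufaf8 at 0.36. Of 25 assembly factors of complexes III, IV and V, 6 fell and 6 rose, with Ttc19, which acts in complex III, at -0.74 and Coa5 at -0.41. Mitochondrial ribosomal proteins gave 14 falls and 11 rises of 78, from a median of -0.01, with Mrpl12 at 0.99 and Mrpl1 at -0.63. Of 14 citrate cycle genes 3 fell and 1 rose, with Sucla2 at -0.46 and Dld at -0.44. Import and membrane organisation had 2 falls and 5 rises of 18, with Tomm70a at -0.60 and Tomm6 at 0.36.

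Among 11 transcriptional regulators of mitochondrial genes 4 fell and 4 rose. Gabpa, which encodes the DNA-binding part of GABP, was at -0.26 and the nuclear receptor gene Esrra at 0.40. Glycolysis had 1 fall and 3 rises of 17, with Eno3, the muscle enolase, at -0.55 and the common enolase Eno1 at 0.85 (limma adjusted p = 0.00327 and 0.00419). All genes named in these lists were called (limma adjusted p = 8.5e-05 to 0.00703). After the GC and length correction Ttc19, Coa5, Ndufaf8, Tomm70a, Tomm6, Mrpl12, Eno3 and Eno1 were still called, and Sdhd, Cycs, Tmem126b, Sucla2, Dld, Mrpl1, Gabpa and Esrra were not.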

How the data were processed

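The deposited table holds FPKM for 56495 genes in 12 libraries, per the file headers, and 0 columns of other samples. Libraries were made from ribosomal-RNA-depleted total RNA with strand-specific single-end reads, per the labels' protocols. The submitters' processing notes name STAR 2.7.10a, Cufflinks 2.2.1, cutadapt 4.1 and bedtools 2.30.0, and as builds mm39 and mm10, without saying what each was used for. Only 2.74% of genes ended where the GENCODE M21 annotation of GRCm38 has them, so positions are given as mm39. FPKM hold no counts, so only relative depth was read, from the steps between values under 0.05 FPKM.

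Libraries were rescaled by median ratios over the 11897 genes that reached 1 FPKM in every library (divisors 0.748 to 1.131). A gene was tested where 3 or more libraries reached 1 FPKM, as log2 of scaled FPKM plus 0.5, which understates the change of low genes. limma 3.58.1 in R 4.3.3 fitted 4 group means with an intensity trend and 8 residual degrees of freedom, two-sided, over 13904 genes, and the script was tested on simulated data. The GC and length correction used natural splines with 5 degrees of freedom each, on the longest transcript in GENCODE M21, library by library. Promoters came from RefSeq on GRCm38.p6.

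Named genes are the 2 most abundant of each complex, up to 3 called in each direction with the smallest p over both sexes, up to 4 in the other comparisons (the 3 smallest p where none was called), tissue isoforms with their partners, untested members, and the 2 with the smallest p of each list of other genes. Others were named after their values were seen, as were the groupings by role, the motif letters and the genes plotted by library. The members and lists were chosen with earlier results of these data known. Alternatives covered pseudocount, filter, scaling, trend, correction, replicate block and libraries left out. No library pair was identical, and no row is named Atp5if1.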

Additional observations from a re-analysis of the deposited data

How the results depend on the processing

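Of the named calls over both sexes, 21 of 24 held without any 1 library, 10 after the GC and length correction and 6 in all alternatives that tested them (Atp5j2, Atp5pb, Atp5c1, Atp5g2, Ndufb4 and Cox8b, which the filter of 5 FPKM leaves out). In males these were 13, 5 and 1 of 19, in females 12, 3 and 3 of 18. Pseudocounts, a filter of 5 FPKM, the trend and 75th percentile scaling moved no count of members called by over 1.5 times. With FPKM as deposited, members called were 14 in males, 7 in females and 0 between the sexes in mutants, with median changes of -0.17 for both sexes, -0.29 for males and -0.06 for females. With the sum without Rn7sk the medians were -0.17 over both sexes and -0.20 in females, and 15 members were called between the sexes in mutants. With the correction 8 were called in males, 13 in females and 5 between the sexes in mutants, and with the replicate block and the correction together 6, 10 and 3, with a female median of -0.05 in both. Without a filter 5 were called between the sexes in mutants. Without the 3 libraries with Rn7sk 17 were called over both sexes, 1 in males and 0 between the sexes in mutants.

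Leaving out 1 library gave 28 to 35 members called over both sexes, 16 to 28 in males (16 without mutant male 1), 14 to 27 in females (14 without wild type female 1), 0 to 1 between the sexes in wild type and 0 to 11 in mutants (0 without any 1 mutant male, 4 without wild type female 1 or 2, 5 without mutant female 2). Signs turned with the correction, with or without the block, for Cox6a1 (-0.06 over both sexes, -0.08 in females), Cox7b (0.10, and 0.03 in males), Ndufb7 and Ndufs7 (-0.01), Ndufv2 (0.07 in females), Uqcr11 (-0.08, and -0.10 in females) and Uqcrc2 (0.00 in females). They turned with the sum without Rn7sk for Cox6a1 (-0.01) and Ndufv1 (-0.03) in females and for Ndufa12 (0.03) and Ndufv1 (0.05) between the sexes in mutants. The causes were not tested. Same-numbered libraries had correlations of their deviations from -0.226 to 0.317. Differently numbered libraries were not set beside them, so whether the numbers pair the libraries is not shown. With the replicate block alone 33 members were called over both sexes, 26 in males, 25 in females and 8 between the sexes in mutants, and no named call changed. FPKM give no total counts, so no counting interval could be set.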
